A study of Mus musculus with 15 samples.

Results

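In HPC-7 cells, the position of each called YY1 summit was measured against peaks of the histone mark H3K4me3. A summit is the base at which the peak caller placed the highest signal of a peak. The members were all 22918 summits of 3 control YY1 libraries, 8469, 10699 and 3750 in replicates 1, 2 and 3, among the 95112 peaks of the 12 libraries with a peak list. Each YY1 list was set against each of 3 control H3K4me3 lists, which held 16763, 17895 and 17493 peaks, so 9 library pairs were compared. For each summit the distances to the nearest H3K4me3 peak edge, H3K4me3 summit and gene start were taken, and YY1 calls were related to the length of H3K4me3 peaks and to the gaps between them.

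HPC-7 is a mouse line of early haematopoietic character that was derived from embryonic stem cells, so all libraries share 1 cell source. The study applied CUT&Tag with antibodies to IgG, H3K4me3, YY1 and the cohesin subunit SMC3, with H3K4me3 as the positive control, and used around 150000 cells in a reaction. All groups used here were control cells: the titles give the genotype as WT, the descriptions name them shLUC, and no further treatment is given. YY1, H3K4me3 and SMC3 had 3 libraries each, described as biological replicates. SMC3 served only as a second factor measured in the same cells. The cells with shYY1 and the IgG libraries were not analysed here.

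YY1 is a zinc finger protein that binds DNA at promoters and enhancers. It recruits chromatin complexes, among them INO80 and Polycomb proteins, and can join distant sites. H3K4me3 is trimethylation of histone H3 at lysine 4 and marks nucleosomes that flank active gene starts. In CUT&Tag an antibody holds a transposase at its target, which cuts the open DNA beside it, so the summit of a mark carried by nucleosomes and that of a DNA-bound factor can fall on the same accessible stretch.

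The first promoters shown carry the longer of the YY1 motifs searched, which reads AA, any base, ATGGCG, any base and C, and had a YY1 summit at 1 base in all 3 libraries. Capitals mark the motif on either strand. Each run holds 200 bases, from base -170 to base 29 of the gene, where 0 is the gene start, and was copied from RefSeq promoter sequences for GRCm38.p6, which is the assembly behind mm10. These 4 genes were chosen after their values were seen, as those with the smallest range of YY1 summits. Ccdc167 lies at chr17:29716988-29717187, minus strand. Chtop, which encodes a factor of mRNA export, lies at chr3:90509469-90509668, minus strand. Fkbp3, a nuclear prolyl isomerase gene, lies at chr12:65073909-65074108, minus strand. Mrps18a, a gene of the mitochondrial ribosome, lies at chr17:46110834-46111033, plus strand. The runs cover promoter bases and the first transcribed bases.
Ccdc167: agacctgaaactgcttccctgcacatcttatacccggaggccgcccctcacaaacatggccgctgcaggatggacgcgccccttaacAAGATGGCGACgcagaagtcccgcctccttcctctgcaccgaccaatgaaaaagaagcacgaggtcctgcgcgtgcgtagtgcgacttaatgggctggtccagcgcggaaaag
Chtop: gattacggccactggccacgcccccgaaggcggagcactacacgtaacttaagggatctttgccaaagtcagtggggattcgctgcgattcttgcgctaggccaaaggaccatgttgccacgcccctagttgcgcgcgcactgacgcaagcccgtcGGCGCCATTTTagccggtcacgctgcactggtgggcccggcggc
Fkbp3: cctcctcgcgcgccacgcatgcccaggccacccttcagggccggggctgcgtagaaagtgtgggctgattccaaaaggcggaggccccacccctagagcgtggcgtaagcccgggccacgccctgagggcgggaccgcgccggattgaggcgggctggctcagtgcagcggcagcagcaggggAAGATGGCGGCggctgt
Mrps18a: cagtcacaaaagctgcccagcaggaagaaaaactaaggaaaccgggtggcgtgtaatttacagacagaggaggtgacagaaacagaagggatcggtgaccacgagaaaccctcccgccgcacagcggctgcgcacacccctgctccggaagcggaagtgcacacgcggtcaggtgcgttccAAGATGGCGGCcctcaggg

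At these 4 starts the motif lay beside the YY1 summit. At Ccdc167 the YY1 summit was at -53 in each library and the motif at -83 to -73, while the H3K4me3 summits were at 128, -53 and -53. At Chtop the YY1 summit was at 13 and the motif at -14 to -4, with H3K4me3 summits at 231, 13 and 15. At Fkbp3 the YY1 summit was at -7, the motif at 13 to 23 and all 3 H3K4me3 summits at -80. At Mrps18a the YY1 summit was at -33, the motif at 11 to 21 and the H3K4me3 summits at 30, -34 and -33. The motif therefore did not contain the summit in any of them, and at 3 of the 4 an H3K4me3 library had its summit within 2 bases of the YY1 summit.

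The next promoters are shown for how YY1 and H3K4me3 summits meet or part. Smc3, which encodes the SMC3 subunit of cohesin, lies at chr19:53600226-53600425, plus strand, with the longer motif in capitals. Cox7c, a cytochrome c oxidase subunit gene, lies at chr13:86046766-86046965, minus strand, with ATGGCG in capitals. Prpf4, which encodes a protein of the U4/U6 small nuclear ribonucleoprotein, lies at chr4:62408613-62408812, plus strand. Prpf8, which encodes the core protein of the U5 particle, lies at chr11:75486607-75486806, plus strand. In Prpf4 and Prpf8 the capitals mark the YY1 summit base and 10 bases on each side.
Smc3: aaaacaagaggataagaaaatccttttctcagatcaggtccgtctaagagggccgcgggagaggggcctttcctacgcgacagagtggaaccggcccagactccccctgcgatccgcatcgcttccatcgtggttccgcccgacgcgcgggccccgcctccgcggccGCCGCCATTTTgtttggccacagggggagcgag
Cox7c: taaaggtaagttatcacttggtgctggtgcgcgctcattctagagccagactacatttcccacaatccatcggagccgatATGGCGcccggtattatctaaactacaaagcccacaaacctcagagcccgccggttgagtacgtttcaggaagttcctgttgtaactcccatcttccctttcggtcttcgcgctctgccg
Prpf4: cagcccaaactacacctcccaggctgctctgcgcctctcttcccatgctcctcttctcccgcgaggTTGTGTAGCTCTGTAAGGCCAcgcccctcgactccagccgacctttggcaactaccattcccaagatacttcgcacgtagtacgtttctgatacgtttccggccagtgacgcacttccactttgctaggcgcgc
Prpf8: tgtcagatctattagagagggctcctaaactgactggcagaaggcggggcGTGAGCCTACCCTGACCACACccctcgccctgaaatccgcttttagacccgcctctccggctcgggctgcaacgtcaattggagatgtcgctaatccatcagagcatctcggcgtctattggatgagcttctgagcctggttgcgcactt

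At Prpf4 all 3 YY1 and all 3 H3K4me3 summits fell on base -94. At Prpf8 the YY1 summits were at -110, -110 and -112, and the H3K4me3 summits lay downstream of the start at 222, 220 and 54. At Cox7c the YY1 summits were at 30, 30 and 33, the H3K4me3 summits were all at 219, and ATGGCG was at -90 to -85. At Smc3 the motif was at -3 to 7, whereas the YY1 summits at -248, -248 and -251 and the H3K4me3 summits at -252, -248 and -253 lay upstream of the bases shown.

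Across all promoter windows, the 11-base motif was more frequent where YY1 was called than where it was not, though most windows lacked it. It was searched on both strands in the 300-base windows, 250 bases before to 50 after the start, of 32817 distinct gene starts, of which 493 (1.50%) held it. Among windows with H3K4me3 in 3 of 3 lists, 122 of 1468 (8.31%) with a YY1 summit of 3 of 3 libraries held it. The share was 215 of 4268 (5.04%) with a summit of 1 or 2 libraries and 21 of 2501 (0.840%) where no YY1 library had a summit within 1000 bp. Windows without H3K4me3 in any list held it in 0.230%. The share was thus higher the more YY1 libraries had a summit. Without YY1 replicate 2, the longest list, the share in windows without YY1 was 1.90%.

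The 6-base core ATGGCG, which also occurs inside every match of the longer motif, was in 8.92% of all windows. It was in 29.1%, 19.8%, 9.96% and 4.55% of the same 4 classes in turn. GC content moved with the classes: the median was 63.7% with YY1 in 3 of 3 libraries and 61.3% without YY1, with medians of 24 and 20 CpG dinucleotides per window, and its part in the motif shares was not tested. Windows of alternative or divergent starts overlap and are not independent. A match is a description of letters, not a measured site, and no match says only that these letters are not in the window.

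The distance between YY1 summits and the motif was limited by the window. The window leaves 250 bases before the start and 50 after it, and the median motif centre was at 2, so a summit had far more room upstream of the longer motif than downstream, and the side on which it fell is partly set by this choice. In the 122 windows with the longer motif, the median distance of the summit from the motif centre, counted along transcription, was -37, -28.5 and -37.5 bp in the 3 libraries. The median size of the distance was 51.5 ± 2.29 bp (SD, n = 3), and 67.8% ± 1.25 of summits were upstream of the motif. For ATGGCG, in 427 windows, the signed median was -20.7 ± 1.53 bp, and 60.6% ± 0.975 of summits were upstream.

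The peak lists matched the labelled cell type. Of the 12 haematopoietic progenitor genes listed, among them Gata2, Tal1 and Kit, 9 were in the start table and 9 of these had H3K4me3 at the start in at least 2 of 3 libraries, against 0 of 14 genes of other tissues such as Alb and Neurod1. Of all 17491 protein-coding genes, 49% had it. Between 49 and 98 running numbers were missing from the peak names of each list, so peaks had been removed before deposit. The lists carry no score or read count, so depth is unknown, and YY1 replicate 3 had the fewest peaks of its target. Gene starts were not at hand for chromosome 18, which is left out of results on starts. Not every listed gene was in the start table. It held 21 of 30 haematopoietic regulators, 58 of 79 cytoplasmic ribosomal protein genes and 11 of 16 cohesin genes. A summit at a start missing from the table can therefore count as away from starts, and how far this moved the shares and distances was not tested.

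Nearly all YY1 summits lay inside an H3K4me3 peak. The share was 93.3%, 87.9% and 95.8% in replicates 1, 2 and 3, each averaged over the 3 H3K4me3 lists, or 92.4% ± 4.01 (SD, n = 3). Over the 9 pairs it ran from 87.5% to 95.9%, and the order followed list length, with the longest list lowest and the shortest highest. SMC3 summits were inside in 92.7% ± 1.60, a difference of -0.354 percentage points (exact two-sided permutation p = 0.9, 0.982 after Benjamini-Hochberg adjustment over 12 comparisons of position). With 3 libraries against 3 this test cannot go below 0.1, so no such difference can pass 0.05. The sign of the difference from SMC3 changed without YY1 replicate 2 (1.85 points) and without SMC3 replicate 3 (0.341 points).

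Summits outside H3K4me3 peaks were mostly far away. Of YY1 summits outside, 62.6% ± 3.54 were over 10000 bp from the nearest H3K4me3 peak, and the median distance to the edge was 17683, 23024 and 23822 bp in the 3 libraries. Only 1.04% ± 0.305 of all YY1 summits lay outside but within 1000 bp of an edge. Few summits stood just within an edge either: 2.52% ± 0.703 of those inside were at most 50 bp from it.

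Of 3472 YY1 regions called in 3 of 3 libraries, 3334 (96.0%) had their median summit inside an H3K4me3 peak in all 3 lists, and 76 were outside in all 3. Among these 76, 13 were within 1000 bp of an edge and 49 over 10000 bp away. Among the 13, those farthest from an edge included a region with its summit (chr7:28383117) at -3889 from the start of Zfp36, an mRNA decay factor gene. Its distances to the H3K4me3 edge were -814, -1695 and -906 bp in the 3 lists, where negative is outside. At Alyref2, an mRNA export gene, a YY1 summit (chr1:171502463) at -1015 lay at -714, -900 and -722 bp from an edge. The summits nearest to Tex14 (chr11:87443522 and chr11:87449070) and Arl4d (chr11:101642095) were at 38457, 44005 and -23446 from those starts, so the gene names only locate them.

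Inside H3K4me3 peaks, YY1 summits were spread over the middle and thinned towards both edges. The median distance to the nearest edge was 286, 277 and 334 bp, or 299 ± 31.0 bp (SD, n = 3). The central 33.3% of the peak length held 45.0%, 46.1% and 51.5% of YY1 summits, or 47.5% ± 3.45, against 47.3% ± 1.89 for SMC3. Of the summits of the other H3K4me3 libraries 55.7% ± 4.70 were in the central 33.3%, but their median edge distance was shorter, 264 ± 3.79 bp. Each difference from H3K4me3 had an exact permutation p of 0.1, the smallest possible, and an adjusted p of 0.24 over the 12 comparisons.

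**Figure D1:**
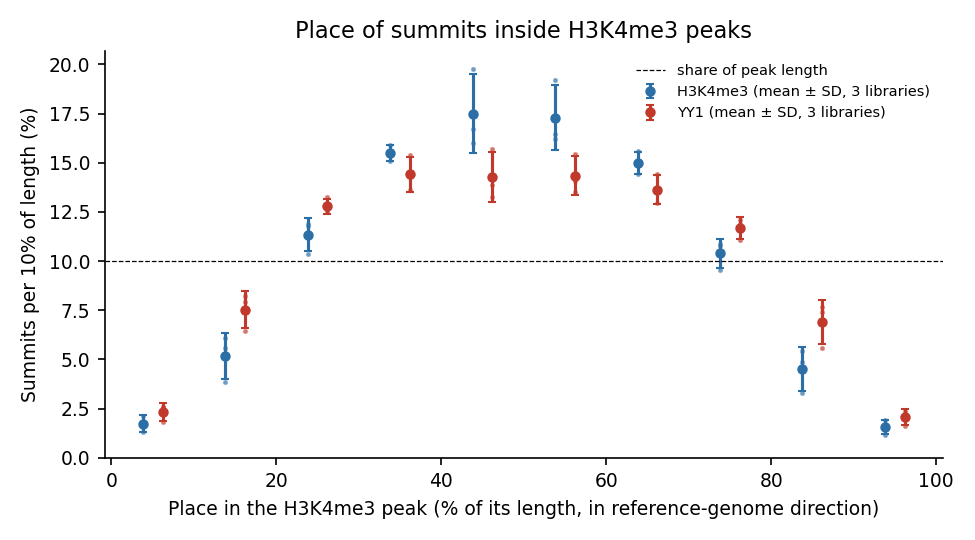
Place of YY1 and H3K4me3 summits inside H3K4me3 peaks, in 10 bins of equal share of the peak length on the x axis, with the share of summits in percent on the y axis. Large points with bars are the mean ± SD of 3 libraries, small points are libraries, and the dashed line is the share of length; the fifth bin held 14.3% of YY1 and 17.5% of H3K4me3 summits.

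The profile over 10 bins showed a broad plateau for YY1. The outermost bins held 2.33% ± 0.441 and 2.08% ± 0.425 of YY1 summits. The fourth to the seventh bins each held between 13.6% and 14.4%. SMC3 had a similar plateau, with 13.6% to 14.7% in each of these bins and 2.05% and 1.62% in the outermost. H3K4me3 summits placed in the peaks of the other H3K4me3 libraries reached 17.5% ± 2.00 in the fifth bin.

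YY1 and H3K4me3 summits were close but not as close as H3K4me3 summits were to each other. The median distance from a YY1 summit to the nearest H3K4me3 summit was 76, 86.7 and 89.3 bp, or 84.0 ± 7.06 bp (SD, n = 3). From the summits of 1 H3K4me3 library to those of the other 2 it was 38, 40.5 and 39 bp. Every YY1 library was thus farther away than every H3K4me3 library (exact permutation p = 0.1, adjusted p = 0.24). Within 50 bp of an H3K4me3 summit lay 37.9% ± 1.89 of YY1 and 55.4% ± 0.706 of H3K4me3 summits. On the very same base lay 7.20% ± 1.09 of YY1 and 17.0% ± 0.254 of H3K4me3 summits. For SMC3 the median distance was 85.1 bp (83.0 to 88.7 by library), and YY1 minus SMC3 was -1.11 bp (exact permutation p = 0.9); the sign turned without YY1 replicate 1 (2.89 bp) and without SMC3 replicate 3 (0.667 bp).

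The same contrast held in regions where each library had exactly 1 peak. There were 2906 such regions over the 6 libraries. Median distances between summits were 31 to 50.5 bp among YY1 libraries, 8 to 16 bp among H3K4me3 libraries and 59 to 83 bp between the targets. All 9 distances between targets therefore exceeded all 6 within a target. The mean between minus the mean within was 42.75 bp (exact permutation over library labels, p = 0.1, the smallest possible).

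In these regions the distance between YY1 and H3K4me3 summits varied. The mean positions were within 50 bp of each other in 1244 regions (42.8%), 51 to 150 bp apart in 1103 (38.0%) and over 150 bp apart in 559 (19.2%). All 6 summits fell within 20 bp in 193 (6.64%), among whose peaks the YY1 length was 429 bp at the median. In 907 regions, 31.2% of the 2906, the 3 YY1 summits and the 3 H3K4me3 summits did not overlap. Of these, 686 were within 1000 bp of a gene start, and YY1 was upstream of H3K4me3 in 553 (80.6%) and downstream in 133. Leaving out 1 library at a time gave 76.0% to 81.1% upstream among regions without overlap. Over all 2111 regions at a start, overlapping or not, YY1 was upstream in 1433 (67.9%). The share was 54.7% where the means were within 50 bp and 40.9% where all 6 summits fell within 20 bp. Without YY1 replicate 3, the shortest YY1 list, there were 6136 regions, of which 2553 had no overlap.

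H3K4me3 length did not follow the distance between summits step by step. The median length was 1016 bp where the means were within 50 bp, 1010 bp at 51 to 150 bp and 1160 bp over 150 bp apart. At starts in the last of these classes, the median H3K4me3 summit was at 81 and the median YY1 summit at -85, and YY1 was upstream in 81.8%. The share without overlap was 23.1% in the shortest of 4 equal classes of H3K4me3 length and 34.7%, 34.8% and 32.2% in the others.

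**Figure D2:**
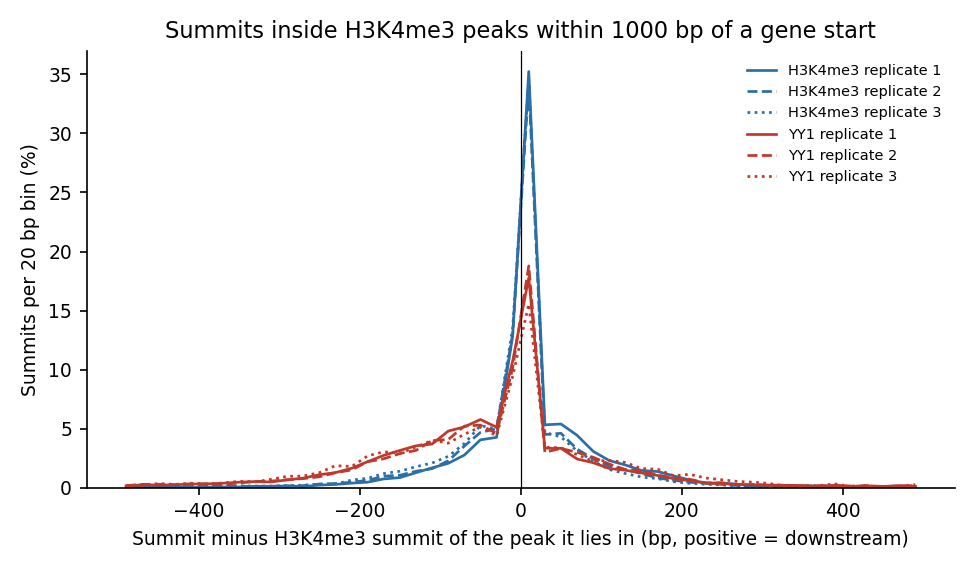
Distance of YY1 and H3K4me3 summits from the summit of the H3K4me3 peak they lie in, in bp along transcription (negative is upstream), for summits within 1000 bp of a gene start; the y axis is the percentage of summits per 20 bp bin, and each line is 1 library averaged over H3K4me3 lists. The bin from 0 holds summits on the same base and is the highest for both targets, and from -500 to -60 bp all 3 YY1 lines lie above all 3 H3K4me3 lines, while nearer to 0 they do not.

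The offset from the H3K4me3 summit of the same peak leaned upstream. At gene starts its median was -15, -6 and -6 bp in the YY1 libraries. YY1 was over 50 bp upstream of the H3K4me3 summit in 40.0% ± 0.973 of cases and over 50 bp downstream in 19.9% ± 2.52 (SD, n = 3). H3K4me3 summits against other H3K4me3 libraries gave 18.0% ± 3.31 and 19.5% ± 3.49, with a median of 0 in every library. The excess over H3K4me3 was thus on the upstream side. SMC3 gave 43.0% ± 0.810 and 19.5% ± 1.32, with a median of -23.5 ± 5.25 bp.

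Over the whole lists, YY1 summits were nearer to gene starts than H3K4me3 summits were. The median distance to the nearest start was 186, 285.5 and 203 bp in the YY1 libraries and 562, 634 and 633.5 bp in the H3K4me3 libraries, so the groups did not overlap. The means were 225 ± 53.2 and 609.8 ± 41.4 bp, a difference of -385 bp (exact permutation p = 0.1, the smallest possible; adjusted p = 0.143 over 10 comparisons at starts). Within 1000 bp of a start lay 64.6% ± 5.44 of YY1 and 55.1% ± 0.678 of H3K4me3 summits. YY1 did not differ detectably from SMC3 in this distance (198 ± 16.5 bp, exact permutation p = 0.6). The lists hold different sets of peaks, and the part of this in the difference from H3K4me3 was not tested. At starts in the 2906 regions with 1 peak in each library, the median position was 7 for H3K4me3 and -30 for YY1. These are signed positions, so they do not show which target was nearer to the start where both were called. Sizes of the distance were not compared in these regions.

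The sides of the start differed. Among summits within 1000 bp of a start, the median position was -31, -16 and -30 for YY1 and 49, 36 and 29 for H3K4me3. Upstream of the start lay 57.6% ± 2.75 of YY1 and 38.3% ± 2.28 of H3K4me3 summits. SMC3 lay farther upstream still, with a median of -62.3 ± 8.39 bp and 67.7% ± 1.73 of summits upstream. These differences of YY1 from H3K4me3 and from SMC3 each had an exact permutation p of 0.1 and an adjusted p of 0.143. Among 27904 starts without a start of the other strand within 1000 bp, the medians were -35.0 ± 10.4 for YY1, 45.3 ± 12.7 for H3K4me3 and -75.3 ± 12.9 for SMC3.

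**Figure D3:**
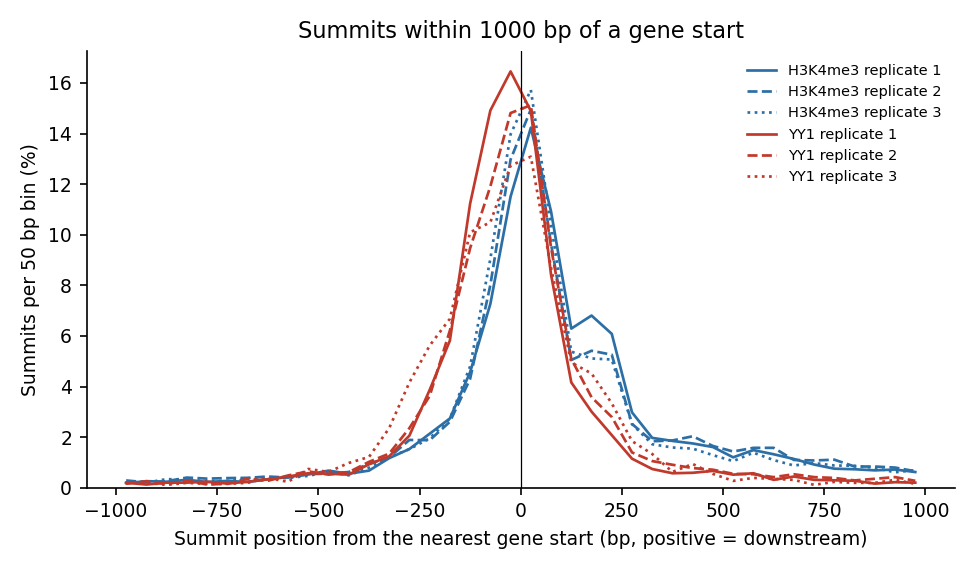
Position of YY1 and H3K4me3 summits around the nearest gene start, in bp along transcription, for summits within 1000 bp; the y axis is the percentage of these summits per 50 bp bin and each line is 1 library. All 3 YY1 lines lie above all 3 H3K4me3 lines from -350 to -50 bp, and all 3 H3K4me3 lines lie above from 150 bp downstream on, with medians of -31 to -16 and 29 to 49.

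The other end of genes held few summits. Only 1.51% ± 0.103 of YY1 summits were within 1000 bp of the end of a gene span without being as near to a start, against 1.84% ± 0.0730 of H3K4me3 summits. Neither a listed start nor a listed end lay within 1000 bp for 33.9% ± 5.36 of YY1 summits and 43.0% ± 0.607 of H3K4me3 summits.

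Between divergent genes YY1 sat more often in the shared stretch. There were 1653 pairs of starts facing apart at most 1000 bp from each other. Where a pair had a summit, it lay between the starts in 49.9%, 44.8% and 47.4% of cases for YY1 and in 37.8%, 37.4% and 41.1% for H3K4me3 (exact permutation p = 0.1). For the 473 pairs over 250 bp apart the shares were 76.5% ± 4.06 and 56.5% ± 2.60 (exact permutation p = 0.1). For the 1180 closer pairs they were 33.3% ± 4.94 and 31.7% ± 1.82.

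Genes with H3K4me3 at the start mostly had YY1. Of 8568 protein-coding genes with an H3K4me3 peak within 1000 bp of the start in at least 2 of 3 libraries, 5299 (61.8%) also had a YY1 summit there in at least 2 of 3, and 2727 (31.8%) in 3 of 3. Over those 2727 genes the median YY1 position was -65 and that of H3K4me3 -9. A summit between divergent starts counts for both genes. Where a gene had several starts, the one with the most YY1 libraries, and then the nearest YY1 summits, was used, which favours YY1 in these counts and positions. The H3K4me3 position is the summit of the peak nearest to that start. YY1 was within 100 bp of the start in 45.6%.

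Splicing factor genes carried YY1 in 40 of 43 (93.0%) with H3K4me3, cytoplasmic ribosomal protein genes in 49 of 58, cohesin genes in 9 of 11, YY1 with its INO80 and Polycomb partners in 14 of 17, oxidative phosphorylation genes in 45 of 61 and haematopoietic regulators in 11 of 21. The count for all genes was 61.8%, and no list was tested against it. Median YY1 positions differed between lists. They were -36 for splicing factors, -37 for oxidative phosphorylation, -63.5 for ribosomal proteins, -47 for haematopoietic regulators, -178 for cohesin and -181.5 for the YY1 partners. The last 3 rest on only 6, 5 and 8 genes. The H3K4me3 median was also far upstream for cohesin (-186) and the YY1 partners (-180.5), and from -37.5 to 159 in the other lists. Within 100 bp of the start lay YY1 in 17 of 22 oxidative phosphorylation genes and 14 of 24 ribosomal protein genes with YY1 in 3 of 3 libraries, against 1 of 8 YY1 partner genes.

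In each list the 4 genes whose YY1 summits varied least were named, which gave 24 genes, and their small spread is therefore the basis of the choice. All 3 YY1 summits lay upstream of all 3 H3K4me3 summits in 8 of the 24, downstream in 3 (Zfpm1, Ring1 and Stag1), and overlapped them in 13. All 6 summits were within 20 bp in 7 of the 24. Over the 2906 regions with 1 peak in each library, 31.2% had no overlap and 6.64% had all 6 summits within 20 bp. A small YY1 range makes both outcomes easier to meet, so the counts of the 24 genes cannot be compared with these shares.

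**Figure D4:**
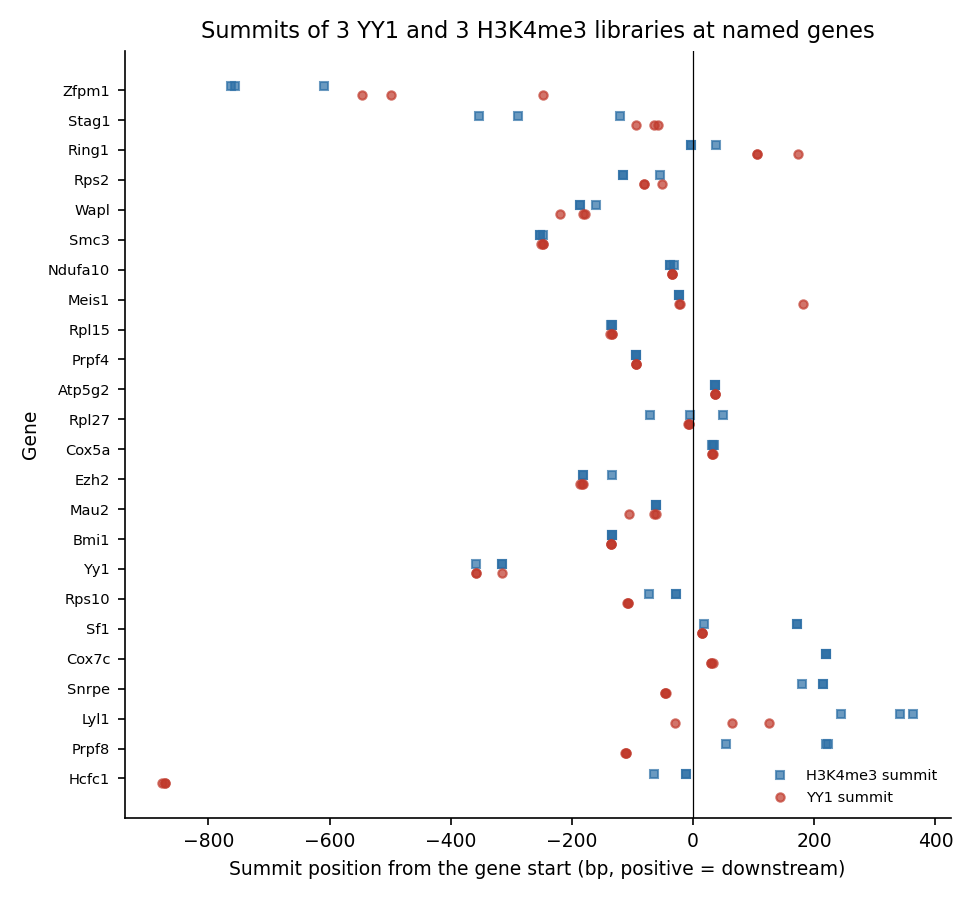
YY1 summits (circles) and H3K4me3 summits (squares) of 3 libraries each at the 24 named genes, in bp from the gene start along transcription (x axis), ordered by the YY1 median minus the H3K4me3 median. At Atp5g2 and Prpf4 all 6 marks coincide, and at Prpf8, Snrpe and Cox7c the circles lie to the left of the squares.

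Among the 4 oxidative phosphorylation genes chosen, both targets met at 3. At Atp5g2, which encodes the c subunit of ATP synthase, all 6 summits were on base 36 of the gene. At Cox5a, a cytochrome c oxidase subunit gene, YY1 was at 33, 32 and 32 and H3K4me3 at 34, 31 and 33. At Ndufa10, which encodes a complex I subunit, YY1 was at -35, -35 and -34 and H3K4me3 at -32, -38 and -38. At Cox7c, given above, the targets were apart.

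Splicing genes split the same way. Beside Prpf4 and Prpf8, at Snrpe, which encodes a protein of the Sm ring, YY1 was at -46, -44 and -46 and H3K4me3 at 214, 180 and 214. At Sf1, which encodes the branch point binding protein, YY1 was at 15, 14 and 14 and H3K4me3 at 18, 171 and 171, so 1 H3K4me3 library had its summit near that of YY1 and the others did not.

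Among ribosomal protein genes, Rps10 had YY1 at -109, -108 and -108 and H3K4me3 at -29, -29 and -72. Rpl15 had YY1 at -134, -134 and -137 and H3K4me3 at -134, -134 and -135. At Rpl27 the YY1 summits were at -6, -8 and -6 and the H3K4me3 summits at -5, 49 and -71. Rps2 had YY1 at -52, -81 and -81 and H3K4me3 at -116, -54 and -115.

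The named genes of YY1 and the partners in its complexes differed in where YY1 lay. At Hcfc1, which encodes the host cell factor that joins YY1 to the deubiquitinase BAP1, YY1 was at -876, -872 and -872 and H3K4me3 at -12, -64 and -12. The H3K4me3 peak at that start reached to -1542 and -1502 in replicates 1 and 3 and only to -342 in replicate 2, so the YY1 summit was inside that peak in 2 of 3 lists. At Ezh2, the methyltransferase gene of Polycomb complex PRC2, YY1 was at -187, -182 and -184 and H3K4me3 at -182, -134 and -182. At Yy1 itself YY1 was at -316, -359 and -359 and H3K4me3 at -316, -316 and -359, so both targets used the same pair of bases. At Ring1, a ubiquitin ligase gene of Polycomb complex PRC1, YY1 was downstream, at 106, 173 and 106, against -4, -3 and 37 for H3K4me3.

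Among cohesin genes Smc3 had both targets near -248. Wapl, the cohesin release factor gene, had YY1 at -178, -220 and -182 and H3K4me3 at -186, -161 and -186. Mau2, of the cohesin loader, had YY1 at -62, -65 and -105 and H3K4me3 at -62 in all 3 libraries. At Stag1, which encodes a cohesin subunit, YY1 was nearer to the start, at -95, -58 and -64, than H3K4me3 at -354, -120 and -289.

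Haematopoietic regulators had the widest spread of YY1 positions of the 6 lists. The median range over 3 libraries was 252.5 bp in their 6 genes with YY1 in 3 of 3. It was 114 bp for splicing factors, 82.5 bp for YY1 partners, 69 bp for ribosomal proteins, 49 bp for oxidative phosphorylation, 42 bp for cohesin and 84 bp for all genes, with no test between lists. Bmi1, a Polycomb gene of stem cell self-renewal, was an exception, with YY1 at -135, -136 and -136 and H3K4me3 at -133 in all libraries. At Lyl1, a progenitor transcription factor gene, YY1 was at 64, 125 and -30 and H3K4me3 at 363, 341 and 244. At Meis1, a homeobox gene of stem cells, YY1 was at -24, -22 and 182 and H3K4me3 at -23 in every library. Zfpm1, which encodes a GATA1 cofactor, had YY1 at -498, -248 and -547 and H3K4me3 at -609, -756 and -762.

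The regulators named in any case differed in how many libraries called YY1. Runx1 had H3K4me3 in 3 libraries and YY1 in 0 within 1000 bp of the start used. Gata2 had a YY1 summit at -26 in replicate 1 alone and Myb at 49 in replicate 2 alone. Kit, the receptor gene of stem cell factor, had YY1 at -33 and -9 in replicates 1 and 2. Tal1 had YY1 in 3 libraries at 493, 315 and 966, which is a spread of 651 bp, and H3K4me3 at 904, 1007 and 314.

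Longer H3K4me3 peaks held a YY1 summit more often. In 4 equal classes of H3K4me3 peaks by length, with median lengths of 301, 593, 911 and 1318 bp, a YY1 summit was called in 13.5%, 29.0%, 49.6% and 63.7%. The longest class had 71.5%, 79.4% and 40.2% in YY1 replicates 1, 2 and 3, and the shortest had 14.6%, 21.6% and 4.16%. The difference was 50.2 ± 12.3 percentage points (SD, n = 3), higher in 3 of 3 libraries (exact two-sided sign-flip permutation p = 0.25, the smallest possible). With the 2061 longest peaks of each YY1 list it was 27.2 points. H3K4me3 peaks over 2000 bp had YY1 in 73.0% ± 17.7. In the same 4 classes an SMC3 summit was called in 5.47%, 12.8%, 23.6% and 36.2%. Summits of the other H3K4me3 libraries were in 68.7%, 95.1%, 99.3% and 99.8%. The rise with length was thus not particular to YY1.

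Per length, the longest and the shortest class differed by less than the spread of libraries, while the third class was above the shortest in 3 of 3. YY1 summits per kb of H3K4me3 were 0.441, 0.491, 0.551 and 0.488 in the 4 classes, and the longest minus the shortest was 0.0463 ± 0.127 (exact sign-flip permutation p = 0.75). That difference was negative in 1 library. The third class minus the shortest was 0.154, 0.0293 and 0.147 in replicates 1, 2 and 3 (exact sign-flip permutation p = 0.25, the smallest possible). Over 10 finer classes, the share with YY1 went from 9.61% at a median length of 230 bp to 67.7% at 1588 bp.

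**Figure D5:**
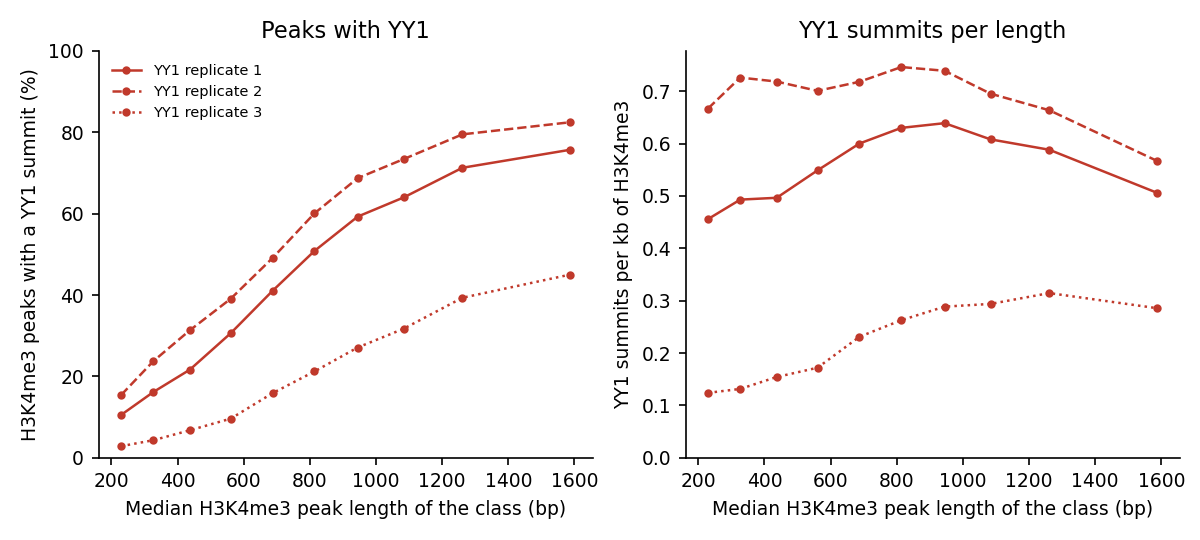
Left, share of H3K4me3 peaks with a YY1 summit (percent, y axis) in 10 equal classes of H3K4me3 peak length, placed at the median length of the class in bp (x axis); right, YY1 summits per kb of H3K4me3 on the same x axis. Each line is 1 YY1 library averaged over 3 H3K4me3 lists; on the left all 3 are highest at long peaks, and on the right replicate 2 lies highest and replicate 3 lowest.

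Length and gene starts moved together. The share of H3K4me3 peaks within 1000 bp of a start was 25.1%, 47.1%, 70.0% and 78.3% in the 4 classes. At starts, YY1 was called in 66.2% of the longest and 10.6% of the shortest peaks, and away from listed starts in 54.8% and 14.5% (each difference with an exact sign-flip permutation p of 0.25). The gain with length was thus present on both sides of this split. Whether length or signal strength goes with YY1 cannot be told apart, since the lists give no signal.

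Regions seen by more YY1 libraries were longer. Of 16653 H3K4me3 regions called in at least 2 of 3 libraries, 7062 had no YY1 summit, 2312 had one in 1 library, 3836 in 2 and 3443 in 3. The 7279 with YY1 in at least 2 of 3 libraries made 43.7% of the regions, and those with all 3 made 20.7%. Median lengths were 634, 887, 1026 and 1194 bp in order of the number of YY1 libraries, and 42.3%, 51.7%, 66.7% and 73.5% were at a start.

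Distances in bp within a peak were larger in longer peaks and their upper limit grows with the peak's length. From the shortest to the longest class the median edge distance was 101, 210, 297 and 416 bp, and the median distance to the nearest H3K4me3 summit was 37.3, 59.0, 76.2 and 87.9 bp. The central 33.3% held 49.2% of YY1 summits in the shortest and 43.1% in the longest class, lower in 3 of 3 libraries (exact sign-flip permutation p = 0.25).

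Few H3K4me3 peaks held several YY1 summits. Of peaks with YY1, 2.66% ± 1.12 had more than 1 summit, and 17.5% ± 6.70 of those over 2000 bp did. The spacing of neighbouring YY1 summits in a peak was 692 ± 17.6 bp at the median and 189 bp at the smallest, and the highest number in 1 peak was 4.

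The longest H3K4me3 regions varied widely in YY1. The region at Brd2, which encodes a bromodomain protein that reads acetylated histones, spanned 4196 bp (chr17:34118738-34122933) and held 3, 4 and 2 YY1 summits in replicates 1, 2 and 3. The one at Zmiz1, which encodes a transcriptional coactivator, was the longest with 4209 bp (chr14:25457404-25461612) and held 1, 0 and 0. Foxo3, a forkhead factor gene, had 1, 2 and 1 in 3806 bp. Cdk6, a cell cycle kinase gene, had 2, 3 and 0 in 3658 bp, and Gse1 had 2, 3 and 0 in 3520 bp. Tmc6 had 1 in each library in 3361 bp, and Phf12, a PHD finger gene, had 2, 2 and 1 in 3346 bp. In the last of these 8 regions, with 3096 bp (chr11:69408780-69411875) and no listed start near it, the libraries held 2, 1 and 0.

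YY1 was almost never called in the gaps between neighbouring H3K4me3 peaks. A gap was a stretch of at most 2000 bp between peaks of 1 H3K4me3 list, and the lists held 2070, 2976 and 2450. No gap was shorter than 206, 173 and 189 bp. Of all YY1 summits, 0.0472%, 0.0436% and 0.0356% lay in a gap, which is 1 to 6 summits in each of the 9 pairs. The share was 0.0419% ± 0.0246 for SMC3 and 0.198% ± 0.0551 for summits of the other H3K4me3 libraries. A low share in gaps was thus not particular to YY1. Per megabase there were 2.54 ± 1.37 YY1 summits in gaps and 502 ± 218 in H3K4me3 peaks (SD, n = 3). The gaps of a list covered 1328 kb on average and its peaks 13909 kb. Gaps lie outside H3K4me3 peaks by definition, and the density in other sequence outside peaks was not computed. These values therefore do not show that gaps held less YY1 than such sequence.

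The gaps that held a summit were scattered. There were 20 distinct summits over the 3 YY1 libraries, of which 5 lay within 1000 bp of the start of a protein-coding gene. In 1578 gaps shared by 3 of 3 H3K4me3 lists, 0 held a YY1 summit of 3 of 3 libraries, 1 held one of 2 libraries and 2 held one of 1 library. The first held summits at -55303 and -55242 from the start of Cldn11 (chr3:31094617 and chr3:31094678), in replicates 2 and 1. Another was 898 bp downstream of the start of Yy1 itself, in replicate 2 (chr12:108794195). The remaining one was 15456 bp from Zfp213 (chr17:23548770), in replicate 1. These genes were named after their values were seen, since no gap met the rule of 3 of 3 libraries.

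Narrow and wide gaps did not differ beyond the spread. A YY1 summit was in 0.0862% ± 0.0371 of gaps up to 500 bp and in 0.221% ± 0.154 of those over 500 and up to 2000 bp, a difference of -0.135 ± 0.130 percentage points (exact sign-flip permutation p = 0.5).

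Peaks beside a narrow gap carried YY1 less often than peaks without one. YY1 was called in 29.2%, 35.4% and 13.2% of peaks beside a gap of up to 500 bp, and in 48.9%, 57.9% and 22.9% of peaks with no gap of up to 2000 bp. The difference was 17.3 ± 6.71 percentage points, in the same direction in 3 of 3 libraries (exact sign-flip permutation p = 0.25). Median lengths were 542 bp beside narrow gaps and 842 bp without gaps. Within the 4 length classes the shares were 8.36%, 26.3%, 43.6% and 55.6% beside narrow gaps and 16.1%, 30.1%, 50.7% and 64.6% without. A smaller difference was thus left within each class. In the third class it was absent in YY1 replicate 3 (-0.0293 points). Lengths still vary within a class, and the part of length or of gene starts in the remaining difference was not tested.

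Where a narrow gap split H3K4me3, YY1 was more often on neither side or on 1 side than on both. It was called in only 25.9% ± 11.5 of peaks beside such gaps, so few pairs with both sides called follow from this rate alone. No share expected from the rate was computed. Neither flanking peak held YY1 in 52.9% ± 19.1, 1 of them in 42.6% ± 15.5 and both in 4.45% ± 3.85. In replicate 3 neither held it in 74.4%. When 1 side held YY1, this was the longer peak in 78.6% ± 3.20 of cases, and longer H3K4me3 peaks held YY1 more often in general. The YY1 summit lay on the gap side of the midpoint of its peak in 54.8% ± 0.697 of cases, and the H3K4me3 summit of peaks beside 1 such gap in 57.2%, averaged over the H3K4me3 lists.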

How the data were processed

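The deposited files hold 1 list of called peaks per library, with start, end and summit offset as other numbers in bp and no score, per the file headers. The submitters' processing notes name MACS2 2.2.9.1, Bowtie2 2.5.1, cutadapt 4.5, Picard 3.1.1 and the build mm10. For settings, peak thresholds, duplicates and any use of IgG, nothing is given in the sources used here. Summits were placed against each H3K4me3 list separately and averaged over the 3 lists. Starts and sequences came from the RefSeq promoter table of GRCm38.p6, with 32851 starts, coding or not; a summit was assigned to its nearest start. Merged regions shared at least 1 bp.

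Groups of libraries were compared by exact two-sided permutation (20 assignments) and YY1 libraries within themselves by sign flips; p-values measure only the spread between libraries. Calculations used Python 3.11.15, NumPy 2.4.6, pandas 2.3.3 and SciPy 1.17.1 and were tested on simulated summits. Named genes were the 4 of each list with YY1 in 3 of 3 libraries and the smallest summit range, and the genes nearest the 8 longest H3K4me3 regions. Others were those nearest the YY1 regions farthest outside H3K4me3, at most 1000 bp from an edge, and those nearest gaps with YY1 in all libraries. Yy1, Smc3, Runx1, Gata2, Tal1, Kit and Myb were named in any case. Not every selected region is printed. Members and lists were chosen with earlier results of these data known. The alternatives are in the closing section.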

Additional observations from a re-analysis of the deposited data

How the results depend on the processing

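The longest-minus-shortest difference in H3K4me3 length kept its sign under all 15 alternatives, and the shorter distance of YY1 to gene starts under all 13; merged H3K4me3 lists do not apply to the latter. With merged H3K4me3 regions of at least 2 and of 3 of 3 libraries, the median edge distance was 330.3 and 335 bp and the share of YY1 summits in gaps 0.0141% for both. With H3K4me3 peaks within 500 bp joined, the gap share was 0.0218%, YY1 minus SMC3 in distance to the H3K4me3 summit was 0.0556 bp, and narrow against wide gaps gave no value. With peak midpoints these were 0.0779% and 0.889 bp, with 56.4% in the central 33.3%. With the longer 50% of each list, 97.4% of YY1 summits were inside (1.14 points above SMC3), the edge distance was 347 bp, the central share 51.2% and the gap share 0.0303%. With the 2061 longest peaks of each list, 98.2% were inside (2.35 points above SMC3), the edge distance was 382 bp, YY1 minus SMC3 in summit distance 7.33 bp, the central share 53.3%, the gap share 0.0162%, narrow minus wide gaps 0.0183 points and the length difference 27.2 points. With peaks shared with another library of the target, by 1 bp or by 50%, YY1 was 0.634 and 0.620 points above SMC3 and the gap shares were 0.0333% and 0.0276%. Small shares in gaps rest on at most 6 summits.

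Leaving out each library in turn gave 90.6% to 94.6% inside H3K4me3, -2.06 to 1.85 points for YY1 minus SMC3 inside, 281 to 310.0 bp to the edge, -3.78 to 2.89 bp for YY1 minus SMC3 in summit distance, 45.6% to 48.8% central, -415 to -366 bp to starts, 46.5 to 57.4 points for length, 0.0371% to 0.0478% in gaps, -0.208 to -0.0684 points for narrow minus wide, and, chosen after seeing the data, 76.0% to 81.1% upstream and 6.63% to 8.20% with the longer motif. The analysis of starts without an opposite start was also chosen after seeing the data. The deviations of same-numbered YY1 and H3K4me3 summits correlated at 0.00612, 0.00552 and 0.0346, and those of differently numbered ones at -0.0309 to 0.0243. Libraries of 1 culture need not share such deviations, so these values cannot tell whether replicate numbers pair the samples. With a replicate block the differences were -0.361 points, -1 bp, -385 bp (exact sign-flip permutation p = 0.25), 50.4 and -0.204 points, with no change of sign. Windows of 500 and 2500 bp gave 5067 and 5531 genes with YY1 against 5300. No stricter peak threshold was run, since the lists hold no score.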
